A study of Mus musculus with 9 samples.

Results

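The genes described here encode the proteins of the cytosolic ribosome, taken as every probe set whose annotation gives a single gene symbol that begins with Rpl or Rps and a digit, or is Rplp0, Rplp1, Rplp2 or Rpsa, without the Rps6k kinases and without pseudogenes. The rule found 48 genes, measured by 100 probe sets, among 12393 genes on the array. They are 20 proteins of the large (60S) subunit, 20 of the small (40S) subunit, the stalk proteins Rplp0 and Rplp2, and 6 paralogues whose symbols end in l or l1. A total of 46 passed the filter on low signals and were tested. The other 2, the muscle paralogue Rpl3l and the testis-enriched paralogue Rpl39l, lay under the filter on 8 of 9 arrays each. A further 102 probe sets name a ribosomal protein gene together with other genes and are not members. Rplp1, Rpl3, Rpl5, Rpl10, Rps27a, Rpl36a and Rpl36al had no probe set with a single name and were not analysed here.

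The RNA was that of mouse megakaryocytes, from which platelets are shed, grown in primary culture and sampled at stages labelled MKP, MK3, MK4 (2 arrays each) and MK6 (3 arrays). All stages share growth of marrow or fetal liver cells with thrombopoietin, the hormone that drives platelet formation, and sorting on the lineage integrin CD41 and on cell size. The stage names MK3, MK4 and MK6 carry the culture days 3, 4 and 6, and no day is given for MKP. The labels give no strain, genotype or age of the mice, do not mention pooling, and do not assign an array to marrow or to fetal liver. Whether arrays of a stage stand for separate cultures is likewise not stated, and the p-values below then reflect the spread among these samples alone, possibly a technical one.

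Each cytosolic ribosome holds a single copy of almost every ribosomal protein, and cells make these proteins in matched amounts, so their mRNAs are usually present at high and balanced levels. In mammals these mRNAs belong to the TOP family. They begin with a C followed by a run of pyrimidines, and their translation depends on the kinase mTOR and the RNA-binding protein Larp1. Loss of a ribosomal protein is known for its effect on blood: mutations in several of these genes cause Diamond-Blackfan anaemia in humans, and unassembled 60S proteins activate p53 through Mdm2.

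The start-site windows of several members are shown because TOP mRNAs are known for the pyrimidine run at this position. Most were picked to show such a run, and 19 of the 50 windows of this length held one of the words searched. They run from 15 bases before the RefSeq start to 15 bases from it (build GRCm38.p6, transcript strand), with capitals on the pyrimidine words (CTTTC or CTTTT or CTTCC or CTCTT) and on their overlaps. Rps9 and Rpl39 are among the members with the largest differences over the course, and Rps27l is the paralogue of Rps27.
Rpl7a (chr2:26910792-26910821, + strand): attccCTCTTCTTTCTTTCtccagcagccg
Rpl35 (chr2:39005117-39005146, - strand): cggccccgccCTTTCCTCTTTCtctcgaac
Rpl38 (chr11:114668565-114668594, + strand): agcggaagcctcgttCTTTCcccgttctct
Rplp2 (chr7:141447636-141447665, + strand): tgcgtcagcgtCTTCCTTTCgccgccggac
Rps6 (chr4:86857353-86857382, - strand): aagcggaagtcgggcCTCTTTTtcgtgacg
Rps10 (chr17:27635230-27635259, - strand): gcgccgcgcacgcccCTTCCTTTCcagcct
Rps27 (chr3:90213634-90213663, - strand): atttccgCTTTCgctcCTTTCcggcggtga
Rps9 (chr7:3704026-3704055, + strand): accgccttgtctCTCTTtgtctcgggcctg
Rpl39 (chrX:37085208-37085237, - strand): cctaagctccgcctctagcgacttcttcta
Rps27l (chr9:66946071-66946100, + strand): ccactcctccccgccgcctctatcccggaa

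A RefSeq promoter window was found for 42 of the 48 genes, with 50 starts in all. At least 1 of the 4 words lay within 20 bases of the start on the transcript strand in 21 of 50 (42%), against 20.4% of all 32851 promoter windows. On the other strand the shares were 22% and 20.7%. CTTTC alone was found in 24% of the members' windows, against 5.49% of all, and CTCTT in 18%, against 5.52%. CGGAAG, the core of an ETS factor motif, stood on either strand of the 300-base promoter in 60% of the members' windows, against 16.9% of all; its complement shares letters with CTTCC. Rpl39 and this Rps27l start held none of the 4 words in the printed window. These matches describe letters in annotated windows, and no binding or start-site data were measured.

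Signals were scaled to a common trimmed mean, and levels and differences are given as log2(scaled signal + 15.3). A gene was called where limma gave a Benjamini-Hochberg adjusted p below 0.05 over all genes tested. Signals of different probe sets do not compare as transcript levels, so each gene is compared only with itself. In these bulk samples, fewer cells with a transcript and less of it per cell cannot be told apart.

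RNA quality and cell content differed between arrays. The beta-actin 3'/5' ratio of the control probe sets, which increases as RNA fragments, was 1.49, 1.33 and 3.21 on MK6 replicates 1, 2 and 3 against 0.957 to 1.09 over the 6 arrays of earlier stages. Arrays of the same stage correlated with r of 0.834 to 0.968 across the 9392 genes tested (genes being no replicates). Of 12 megakaryocyte markers 8 were tested. In MK6 over MKP 3 of these were called higher and 0 lower, against 2.81% and 3.02% of all genes tested. The difference was positive for 6 of the 8 and negative for Itgb3 and Ppbp, so the list did not move as one. Itgb3 had 262 and 269 in MKP and 143, 56.5 and 15.01 in MK6. The summed signal of the 8 was 15839 to 19212 in MK6 and 8910 to 9262 in MKP. Pf4 alone had 11337, 7269 and 9221 in MK6. Of 10 neutrophil markers 5 fell and 0 rose, and their sum was 6557 to 28911 in MK6 against 38572 to 47422 in MKP. None of the tested markers was at 0, and their part in the results below was not tested.

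The ribosomal protein genes moved as a block from array to array, and this movement was as large within stages as between them. The median deviation of the 46 genes from their own means was 0.20 and -0.04 on the MKP arrays, -0.05 and -0.18 on MK3, -0.005 and -0.28 on MK4, and -0.22, 0.08 and 0.55 on MK6 replicates 1, 2 and 3. MK6 replicate 3 stood highest and MK4 replicate 2 lowest, and the MK6 arrays alone spanned 0.77. The stage means of these values ran from -0.14 in MK4 to 0.13 in MK6, against a pooled SD of 0.27 within stages. The median of all genes tested stayed between -0.08 and 0.16 on every array.

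On MK6 replicate 3, 44 of the 46 genes were above their own mean, and 36 had their highest value of the 9 arrays there, against 17.0% of all genes. The lowest value fell on MK6 replicate 1 for 18 of the 46 (16.6% of all genes) and on MK4 replicate 2 for 15 (7.13% of all genes). MK6 replicate 3, where the scaled signals of the members stood highest, had the lowest median of the 9 arrays as deposited (46.3) and the highest 3'/5' ratios, 3.21 for beta-actin and 3.27 for Gapdh. The median range of a member over the 9 arrays was 0.998 log2 units, against 1.20 for all genes, and 0.51 once each array was centred on the members' median. The 96 probe sets above the filter that name a ribosomal protein gene with other genes gave a like series, from 0.21 and -0.02 on MKP to -0.09, 0.07 and 0.55 on MK6.

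**Figure D1:**
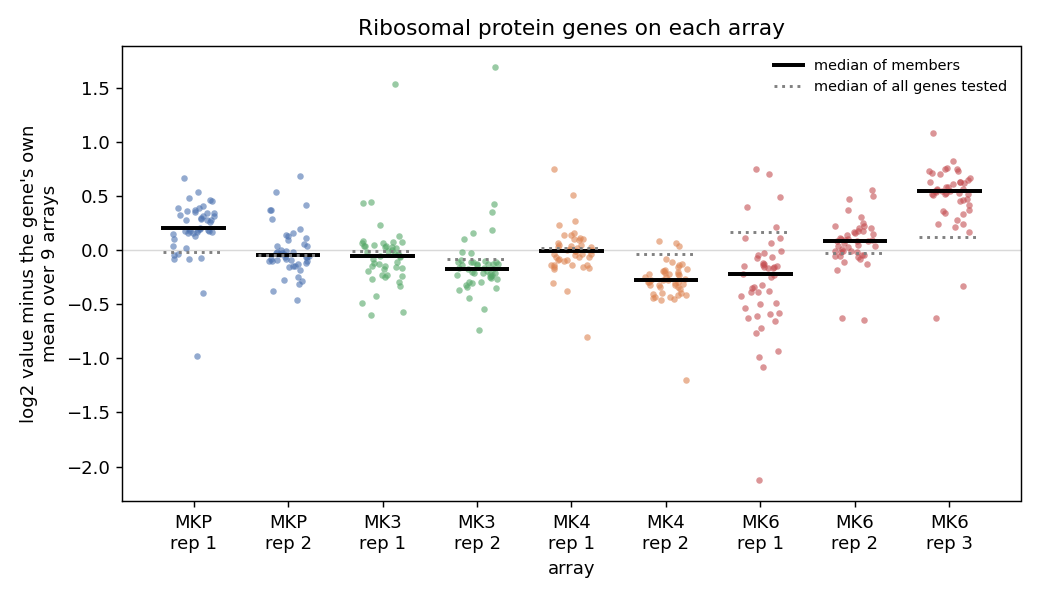
Deviation of each of the 46 tested ribosomal protein genes from its own mean over 9 arrays (y axis, log2), by array (x axis). Points are genes, solid lines the median of these genes and dotted lines the median of all genes tested; the solid line is at 0.55 on MK6 replicate 3 and at -0.22 on MK6 replicate 1.

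Between MK6 and MKP, over the whole course, no ribosomal protein gene was called. Limma called 0 of 46, while 5.83% of all genes tested were called (2.81% higher and 3.02% lower in MK6). That background count of 548 genes was 3 without MKP replicate 1, 11 without MKP replicate 2, 147 without MK6 replicate 3 and 1104 without MK6 replicate 2. At an unadjusted p below 0.05 the count was 1, Rpl39, against 23.9% of all genes. The median difference of the members was 0.02, with 24 positive and 22 negative. That of all genes was 0.13, with 5550 positive and 3842 negative. The members lay in a narrow band: the middle 50% of their differences spanned 0.31 log2 units, against 0.79 for all genes, and the whole range was -0.75 to 0.76. They also had some of the highest signals. Of the 46, 31 had a mean log2 value above the 99th percentile, as had 94 of all genes tested. The median log2 value was 12.1 for members and 7.31 for all genes. Members were not compared with other genes of like signal, so the part of signal level in the narrow band was not tested.

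For 31 of the 46 (67.4%) the 95% interval of the difference lay within a 2-fold change in either direction, against 38.6% of all genes; the median standard error was 0.31. The arrays of MK6 and MKP overlapped for all but 3 members. Rpl39 was higher on every MK6 array (background 24.6%), and Rpl14 and Rps9 were lower on every one (background 18.8%). The sign of the median depended on single arrays. It was -0.19 without MK6 replicate 3, 0.23 without MK6 replicate 1, -0.12 without MKP replicate 2 and 0.15 without MKP replicate 1. With the log2 beta-actin ratio as a covariate it was -0.42, and limma called 0 of all genes. This ratio was higher on every MK6 array (1.33 to 3.21) than on any earlier array (0.957 to 1.09). The fit therefore cannot separate the ratio from the MK6 stage. Here and below, nothing is read from calls lost with this covariate.

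In the first step, MK3 against MKP, most members were lower in MK3 without passing the test. Limma called 0 of 46, against 0.0639% of all genes, and 2 had an unadjusted p below 0.05 (Rpl12 and Rps4l, against 9.87% of all genes). Rps4l passed the filter through the MK3 arrays alone, so nothing is read from its place in this and the later counts. The difference was negative for 42 of 46, including all 20 of the 40S proteins, and for 5085 of the 9392 genes tested. The median was -0.21 for members against -0.04 for all genes. Both MK3 arrays were below both MKP arrays for 17 members (37%, background 26.5%). These were Rpl4, Rpl7, Rpl8, Rpl12, Rpl14, Rpl27, Rpl37, Rpl37a, Rpl38, Rps3a1, Rps9, Rps10, Rps15, Rps19, Rps20, Rps24 and Rps26. Only Rps4l had both MK3 arrays above MKP (background 19.5%). The median was -0.07 without MKP replicate 1, the higher MKP array, and -0.36 without MKP replicate 2.

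In MK4 against MK3 the block did not move by more than its spread. Limma called 0 of 46 (background 0.0106%), and 1 member, Rps4l, had an unadjusted p below 0.05, against 3.66% of all genes. The median was -0.02 for members and 0.05 for all genes. The arrays did not overlap for 3 members that were higher in MK4, Rpl12, Rps19 and Rps24 (background 17.5%), and for Rps4l, which was lower (background 12.7%). The median was 0.11 without MK4 replicate 2 and -0.13 without MK4 replicate 1.

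In the last step, MK6 against MK4, 40 of 46 members had a positive difference, as had 5585 of the 9392 genes tested. Limma called 0 of 46 (background 0.0213%), and 2 members, Rpl12 and Rps19, had an unadjusted p below 0.05, against 10.6% of all genes. The median was 0.28 for members and 0.09 for all genes. All 3 MK6 arrays were above both MK4 arrays for 11 members (23.9%, background 14.9%): Rpl12, Rpl13a, Rpl37a, Rpl38, Rplp2, Rps3, Rps3a1, Rps7, Rps19, Rps25 and Rps28. No member was lower on all MK6 arrays (background 9.84%). Without MK6 replicate 3 the median was 0.05, without MK6 replicate 1 it was 0.43, without MK4 replicate 1 it was also 0.43, and without MK4 replicate 2 it was 0.13. The F test over all stages called 0 of 46, against 2.86% of all genes; 2 members, Rpl12 and Rps4l, had an unadjusted p below 0.05, against 17.2%. MKP enters the whole course and the first step, and MK3, MK4 and MK6 each enter 2 comparisons, so these results share arrays.

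**Figure D2:**
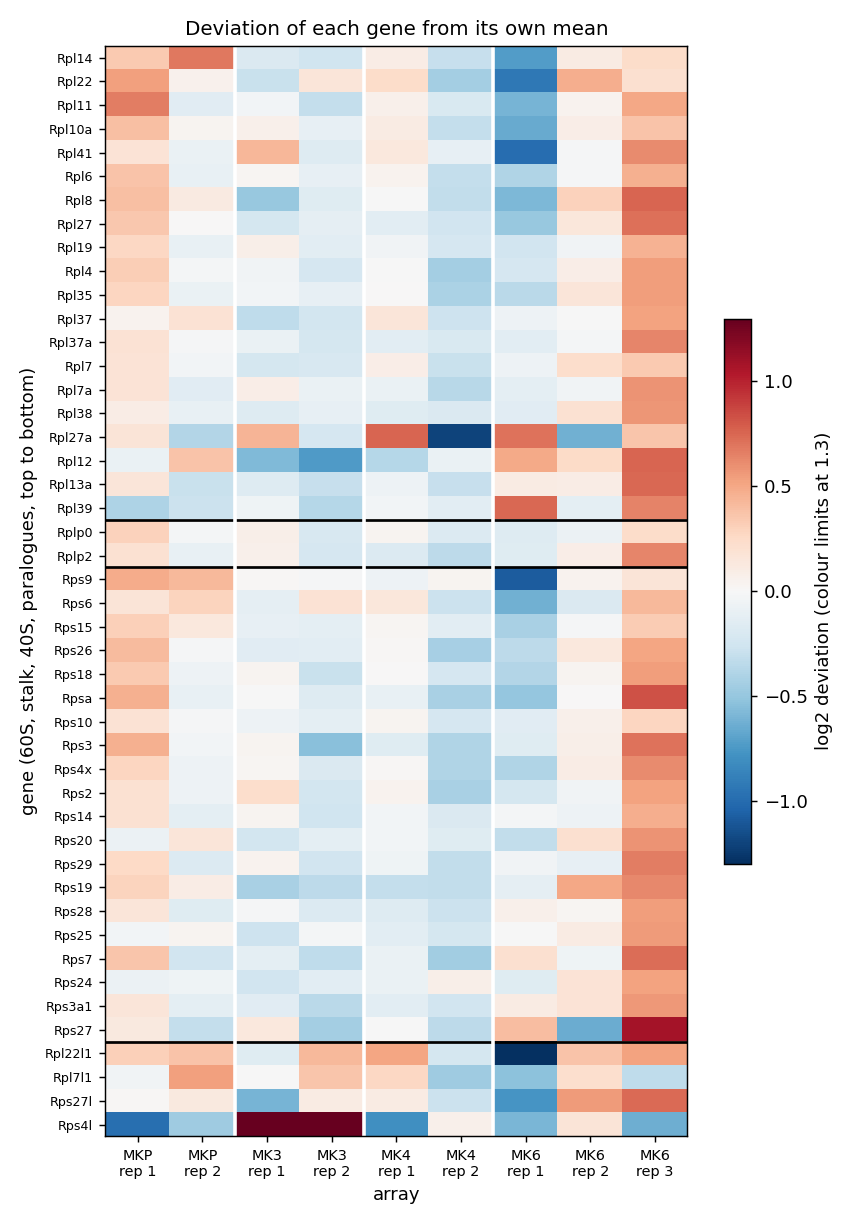
Deviation of each tested ribosomal protein gene (rows, grouped as 60S, stalk, 40S and paralogues) from its own mean over 9 arrays (columns), in log2 units by colour. The column of MK6 replicate 3 is red in nearly all rows, 44 of 46 genes being above their mean there, and the rows of Rpl22l1 and Rps4l break the column pattern.

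The medians of the 60S and the 40S genes lay close together in each comparison; the difference between the subunits was not tested. The median MK6 minus MKP difference was 0.00 for the 20 60S genes and 0.05 for the 20 40S genes. In MK3 against MKP the medians were -0.24 and -0.21, with 17 of 20 and 20 of 20 differences negative and a wider spread among the 60S genes (SD over genes 0.26 and 0.14). In MK4 against MK3 the medians were -0.03 and -0.02, and in MK6 against MK4 0.32 and 0.30. On MK6 replicate 3 the median deviation was 0.55 for both subunits, with 20 of 20 genes above their mean in each.

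The stalk, which recruits the factors of elongation, was represented by its scaffold Rplp0 and the acidic protein Rplp2. Rplp0 had scaled signals of 6526 and 5194 in MKP, 5591 and 4597 in MK3, 5418 and 4689 in MK4, and 4720, 5008 and 6273 in MK6. The stages overlapped, and MK6 minus MKP was -0.14 ± 0.27 (SE; n = 3 and 2 arrays, adjusted p = 0.778 in limma). Rplp2 had 6249 and 5064 in MKP, 5684 and 4675 in MK3, 4797 and 4286 in MK4, and 4879, 5756 and 8433 in MK6. Its MK6 arrays lay on both sides of the MKP arrays (0.14 ± 0.30, adjusted p = 0.801).

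Among the 60S proteins Rpl39, among the smallest ribosomal proteins and part of the wall of the peptide exit tunnel, had the largest difference over the course. Its scaled signals were 182 and 199 in MKP, 236 and 187 in MK3, 239 and 221 in MK4, and 422, 223 and 392 in MK6. MK6 replicates 1 and 3 were high, and replicate 2 stayed at the level of MK4. MK6 minus MKP was 0.76 ± 0.28 and was not called (adjusted p = 0.129 in limma). Without MK6 replicate 2 it was 1.04 ± 0.23 and was called (adjusted p = 0.0225).

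Rpl14 stood at the other end of the 60S set. It had 111 and 146 in MKP, 72.2 and 68.1 in MK3, 91.7 and 66.1 in MK4, and 45.2, 92.0 and 103 in MK6. All later arrays were below the MKP arrays, and MK6 minus MKP was -0.64 ± 0.33 (adjusted p = 0.252 in limma). Rpl13a, which also has a regulatory role outside the ribosome in human monocytes, had 5642 and 4153 in MKP, 4516 and 4130 in MK3, 4849 and 4119 in MK4, and 5480, 5433 and 8541 in MK6. The difference of 0.39 ± 0.30 was not called (adjusted p = 0.440) and changed sign between its probe sets, as given below.

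Rpl11, which with Rpl5 binds Mdm2 and so links ribosome assembly to p53, had 4070 and 2314 in MKP, 2492 and 2065 in MK3, 2684 and 2230 in MK4, and 1676, 2630 and 3639 in MK6. Its highest array was MKP replicate 1 and its lowest MK6 replicate 1, the stages overlapped, and the difference was -0.28 ± 0.35 (adjusted p = 0.644 in limma). Rpl7 had 4447 and 3838 in MKP, 3350 and 3392 in MK3, 4179 and 3199 in MK4, and 3742, 4590 and 4979 in MK6, with a difference of 0.09 ± 0.26 (adjusted p = 0.848). Rpl22, an RNA-binding 60S protein, had 2343 and 1678 in MKP, 1315 and 1796 in MK3, 1901 and 1181 in MK4, and 839, 2242 and 1871 in MK6, lowest on MK6 replicate 1 (-0.38 ± 0.40, adjusted p = 0.578).

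Rpl12, a 60S protein at the base of the stalk, was named after its values were seen, because it had the lowest adjusted p of the last step. It had 70.3 and 102 in MKP, 45.6 and 39.0 in MK3, 54.7 and 70.2 in MK4, and 112, 92.6 and 138 in MK6. The MK3 arrays were below the filter of 46.8 and below all other arrays. MK3 minus MKP was -0.80 ± 0.31 (adjusted p = 0.401 in limma) and MK6 minus MK4 was 0.73 ± 0.28 (adjusted p = 0.410).

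Among the 40S proteins Rps19, the gene most often mutated in human Diamond-Blackfan anaemia, was low in the middle stages. It had 3113 and 2717 in MKP, 1890 and 1998 in MK3, 2054 and 2033 in MK4, and 2344, 3600 and 3930 in MK6. The 4 MK3 and MK4 arrays were below all others, and the MKP values lay inside the MK6 range. MK3 minus MKP was -0.58 ± 0.30 (adjusted p = 0.586 in limma), MK6 minus MK4 was 0.65 ± 0.27 (adjusted p = 0.443) and MK6 minus MKP was 0.14 ± 0.27 (adjusted p = 0.766).

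Rps14, whose loss contributes to the anaemia of human 5q deletion syndrome, had 5843 and 4672 in MKP, 5226 and 4235 in MK3, 4951 and 4451 in MK4, and 4998, 4863 and 7051 in MK6. MK6 replicate 3 alone was above both MKP arrays (0.09 ± 0.28, adjusted p = 0.867 in limma). Rpsa, a 40S protein also known as the laminin receptor precursor, had 6669 and 4516 in MKP, 4817 and 4323 in MK3, 4517 and 3621 in MK4, and 3421, 4870 and 8600 in MK6. Its MK6 arrays spread over a wider range than all other arrays together (-0.07 ± 0.38, adjusted p = 0.923). Rps4x, an X-linked 40S protein, had 6232 and 4911 in MKP, 5230 and 4500 in MK3, 5197 and 3903 in MK4, and 3917, 5489 and 7845 in MK6 (-0.002 ± 0.33, adjusted p = 0.998).

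Rps6, the 40S protein phosphorylated by the S6 kinases downstream of mTOR, had 242 and 264 in MKP, 195 and 246 in MK3, 238 and 174 in MK4, and 133, 186 and 291 in MK6. Its stages overlapped (-0.36 ± 0.30, adjusted p = 0.483 in limma). Rps27, a zinc-binding 40S protein, had 135 and 95.1 in MKP, 135 and 85.8 in MK3, 122 and 92.7 in MK4, and 166, 72.4 and 275 in MK6, the widest spread being within MK6 (0.37 ± 0.43, adjusted p = 0.615).

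Rps9, a core 40S protein, was the lowest of its subunit over the course. It had 4094 and 3922 in MKP, 2960 and 2898 in MK3, 2798 and 2997 in MK4, and 1374, 3018 and 3286 in MK6. All MK3, MK4 and MK6 arrays were below both MKP arrays, and MK6 replicate 1 was below the rest. MK6 minus MKP was -0.74 ± 0.35 and was not called (adjusted p = 0.222 in limma). Without MK6 replicate 1 it was -0.35 ± 0.21 (adjusted p = 0.37).

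The paralogues Rpl22l1, Rpl7l1 and Rps27l had MK6 minus MKP differences from -0.75 to 0.10. Rpl22l1, the paralogue whose expression Rpl22 restrains in mice, had 1362 and 1416 in MKP, 976 and 1468 in MK3, 1565 and 929 in MK4, and 238, 1421 and 1577 in MK6. MK6 replicate 1 was far below the other 8 arrays, which lay between 929 and 1577. MK6 minus MKP was -0.75 ± 0.64 (adjusted p = 0.488 in limma), with the largest standard error among the members, and 0.11 ± 0.29 (adjusted p = 0.866) without MK6 replicate 1. On MK6 replicates 1, 2 and 3 the neutrophil list had median deviations of -1.95, 0.30 and -2.59, and the beta-actin ratio was 1.49, 1.33 and 3.21. The part of cell content and RNA quality in the low Rpl22l1 signal of replicate 1 was not tested.

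Rpl7l1, a relative of Rpl7, had 208 and 319 in MKP, 215 and 280 in MK3, 264 and 152 in MK4, and 144, 253 and 168 in MK6, with overlapping stages (-0.46 ± 0.32, adjusted p = 0.389 in limma). Rps27l, which in human cells is a p53 target, had 1374 and 1485 in MKP, 890 and 1459 in MK3, 1460 and 1118 in MK4, and 794, 2002 and 2266 in MK6. MK6 replicate 1 was its lowest array and replicates 2 and 3 its highest (0.10 ± 0.41, adjusted p = 0.893).

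Rps4l, a relative of Rps4x, had signals above the filter in MK3 alone. It had 5.69 and 14.8 in MKP, 105 and 119 in MK3, 8.49 and 28.0 in MK4, and 12.1, 31.3 and 11.5 in MK6. Both MK3 arrays were above all others. The gene entered the test only through the stage where it was high, so no fold is given. Its place in the counts of p-values, of arrays without overlap and of calls is not read as a result. Hepatocyte markers were high on the same 2 arrays. Of 5 such markers 4 passed the filter, Ttr and Apoa1 through MK3 alone. The summed signal of the 4 was 2815 to 3565 in MK3 against 518 to 538 in MKP. Markers that passed through MK3 alone favour a high sum there, so nothing is read from the sum or from Ttr. The fetoprotein gene Afp had 1805 and 1279 in MK3 against 261 and 300.4 in MKP. The transthyretin gene Ttr had 671 and 455 in MK3 against 45.4 and 29.3 in MKP. None of the 4 was at 0 on any array. The macrophage list summed to 14654 to 29571 in MK3 against 10478 to 13274 in MKP. Its median deviation was 1.56 on MK3 replicate 1 and 0.13 on MK3 replicate 2. The part of either list in the Rps4l signal was not tested.

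**Figure D3:**
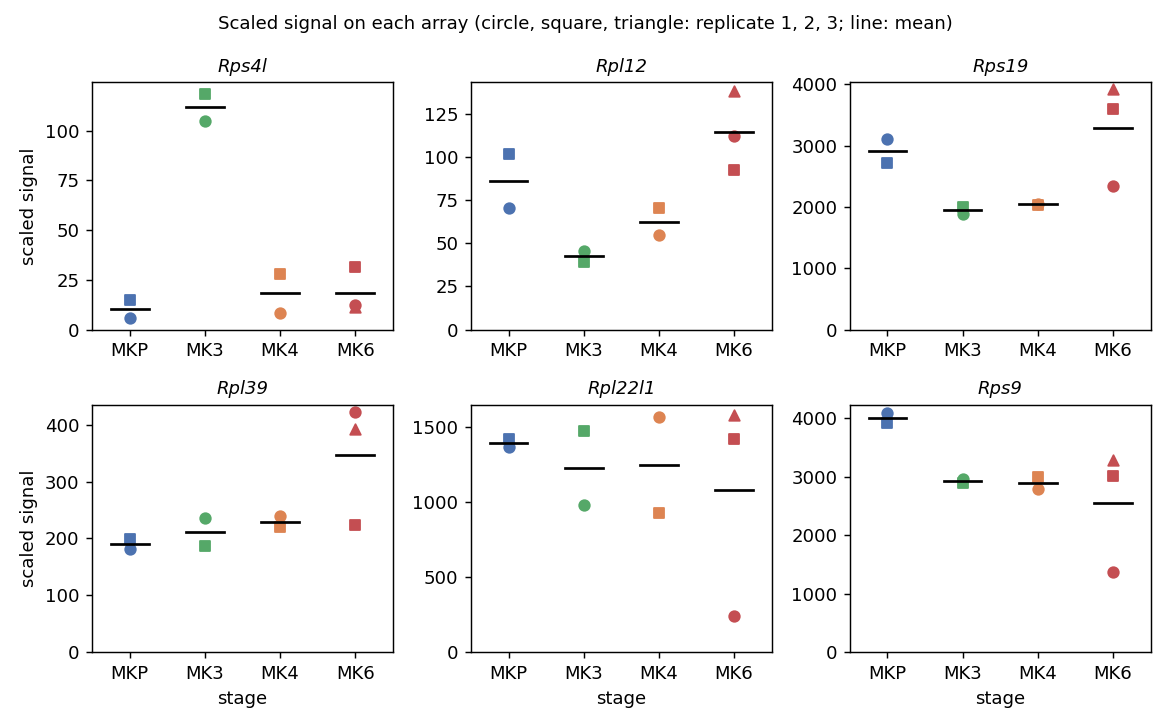
Scaled signal (y axis, linear, from 0) of 6 ribosomal protein genes on each array, by stage (x axis). Circles, squares and triangles are replicates 1, 2 and 3 and lines are stage means; Rps4l reaches 105 and 119 in MK3 only, and Rpl22l1 drops to 238 on MK6 replicate 1.

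Genes with several probe sets gave a second reading of the same gene, at times from a much dimmer probe set. Of the 100 member probe sets 89 passed the filter, and limma fitted over probe sets called 0 of 89 in each of the 4 comparisons. A total of 20 genes had several passing probe sets. Rps6 and Rps24 each had 1 that passed through MK6 alone, which favours a positive MK6 difference, and these were left out of the counts that follow. For the 19 genes that then had several, the median gap between the highest and lowest MK6 minus MKP difference was 0.33 log2 units, beside a median standard error of 0.31 for a member's difference. In 9 of the 19 the probe sets differed in sign.

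Rps9 had the widest gap, with -0.74 on the probe set used and -1.16 and 0.19 on the others. Rpl37a followed with -0.22 to 0.69, Rpl13a with -0.51 to 0.39, Rps10 with -0.27 to 0.51 and Rpl35 with -0.33 to 0.34. Several of these extremes came from dim probe sets. The other Rps9 sets had signals of 26.2 to 122 and 60.1 to 119, against 1374 to 4094 on the set used. The highest difference came from a set of 81.5 to 303 for Rpl37a, 7.29 to 59.7 for Rps10 and 48.2 to 129 for Rpl35. The filter was 46.8. Those of Rpl7l1 (-0.58 and -0.46), Rps15 (-0.33 and -0.26), Rps14 (0.09 and 0.18) and the 3 of Rps27l (0.10 to 0.66) shared a sign. Ribosomal protein genes have many processed pseudogenes, and probe sets whose names end in _x_at or _s_at can bind related sequences. For 16 members the probe set used has such an ending, and their median MK6 minus MKP was 0.09, against -0.01 for the 15 with an _a_at ending and -0.05 for the 15 with a plain one. By signal, 36 members had a mean over 1000 and a median difference of -0.002, and the 10 under 1000 had a median of 0.24.

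**Figure D4:**
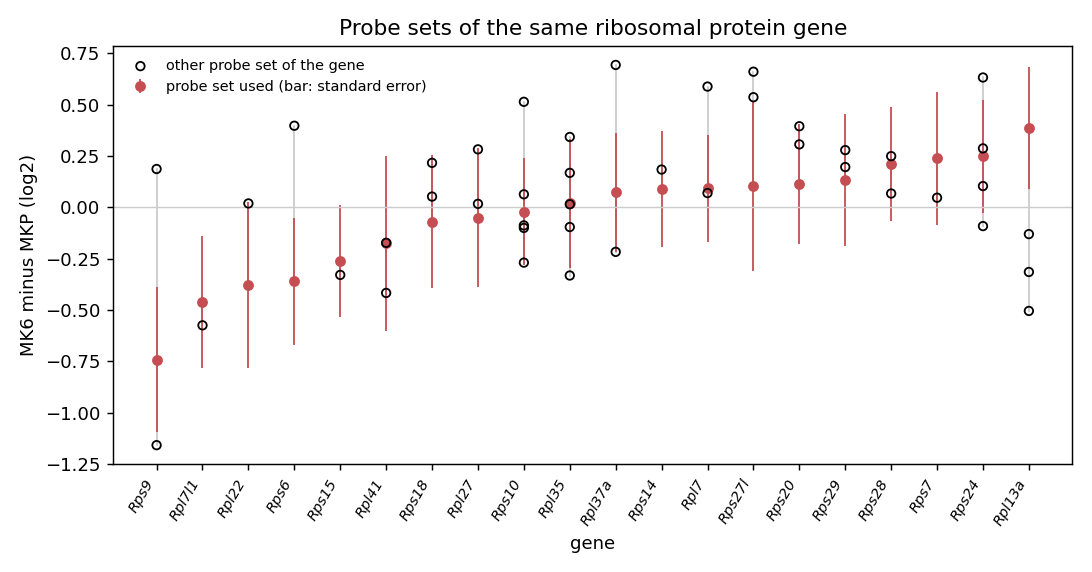
MK6 minus MKP difference (y axis, log2) of every passing probe set of the 20 genes that have several (x axis). Filled points with bars are the probe set used and its standard error, open points the others; the 3 points of Rps9 run from -1.16 to 0.19, and the highest points of Rps6 and Rps24 passed the filter through MK6 alone.

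Genes that build or regulate ribosomes were set beside the ribosomal proteins. Of the 21 nucleolar factors of ribosome assembly 19 were tested, and 3 of the 19 fell in MK6 against MKP and 0 rose, beside 3.02% and 2.81% of all genes: Rrp9, part of a small nucleolar ribonucleoprotein (-2.21 ± 0.42, adjusted p = 0.0167 in limma), the nucleolar phosphoprotein gene Nolc1 (-1.50 ± 0.32, adjusted p = 0.0240) and the rRNA methyltransferase gene Fbl (-1.43 ± 0.25, adjusted p = 0.0126). All 3 calls were lost without MKP replicate 1, without MKP replicate 2 and with the beta-actin covariate, and those of Rrp9 and Nolc1 also without MK6 replicate 3. With 1 array left out the adjusted p in limma reached 0.222 for Rrp9, 0.199 for Nolc1 and 0.19 for Fbl. All 19 had a negative difference, as had 3842 of the 9392 genes tested. Their median was -0.81, beside 0.02 for the ribosomal proteins, and the gap between the lists was not tested. By array the nucleolar median was 0.52 and 0.40 on MKP, -0.21 and 0.02 on MK3, 0.29 and -0.23 on MK4, and -0.82, 0.02 and 0.01 on MK6. On MK6 replicate 3, where the ribosomal proteins stood at 0.55, the nucleolar list was near its mean.

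The mitochondrial ribosomal proteins, all 74 tested, had a median MK6 minus MKP of -0.13, and 2 fell and 0 rose, Mrps34 (-2.05) and Mrpl19 (-1.37), a share near the 3.02% of all genes called lower. Without MKP replicate 1 neither was called (adjusted p = 0.0835 for Mrps34 in limma), and Mrpl19 was called under 7 of 23 alternatives. Of 16 further TOP mRNA genes 15 were tested and 0 were called, with a median of -0.26. The widest differences were those of the nucleolar chaperone Npm1 (-1.22 ± 0.38, adjusted p = 0.0869 in limma), the histone chaperone Nap1l1 (-0.92), Btf3 (-0.89), which helps guide nascent chains, and the elongation factor subunit Eef1d (-0.67). In MK3 against MKP the median was -0.35 for these TOP genes, -0.64 for the nucleolar factors and -0.17 for the mitochondrial proteins, with 0 called in each. The mitochondrial median deviation was 0.17 on MKP replicate 1, -0.10 on MK4 replicate 2, and -0.22 and 0.14 on MK6 replicates 1 and 3. On the same arrays the TOP genes stood at 0.33, -0.21, -0.48 and 0.18, and the cytosolic ribosomal proteins at 0.20, -0.28, -0.22 and 0.55. Signs could differ elsewhere, as on MKP replicate 2 (0.07, 0.13 and -0.04 in this order). Fau, which encodes a 40S protein as a fusion, had 5589 and 4456 in MKP, 5196 and 4334 in MK3, 4492 and 3828 in MK4, and 2931, 3723 and 3765 in MK6. Its MK6 arrays were all below MKP, and the difference was not called (-0.53 ± 0.26, adjusted p = 0.239).

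Of 15 upstream regulators 13 were tested, and only Myc, a transcription factor that drives ribosome production, was called. It had 804 and 958 in MKP, 167 and 204 in MK3, 280 and 334 in MK4, and 74.7, 328 and 228 in MK6, and fell in MK6 over MKP (-2.19 ± 0.45, adjusted p = 0.020 in limma). The call was lost without MKP replicate 1, MKP replicate 2 or MK6 replicate 3 (adjusted p up to 0.188) and with the beta-actin covariate (-2.42, adjusted p = 0.322). Every later array was below MKP, and in MK3 against MKP the difference was -2.16 ± 0.49 (adjusted p = 0.110). The translation repressor gene Eif4ebp2 (-1.12), the S6 kinase gene Rps6kb2 (-1.09) and the mTOR inhibitor gene Tsc2 (-0.84) had the next largest differences and were not called.

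Of 3 genes of p53 control (Mdm2, Trp53 and Cdkn1a), Mdm2 and Cdkn1a were tested, and both rose in MK6 against MKP. A link of either to Rpl11 was not tested. Mdm2, the ubiquitin ligase of p53, had 1445, 1027 and 1523 in MK6 against 298 and 368 in MKP, and rose by 1.94 ± 0.25 (adjusted p = 0.00447 in limma). Cdkn1a, a cell cycle inhibitor that p53 induces, had 1553, 1349 and 1751 in MK6 against 748 and 630 in MKP, and rose by 1.15 ± 0.23 (adjusted p = 0.0191). For both genes the MK6 arrays were all above the MKP arrays, as for 24.6% of all genes, and 2.81% of all genes were called higher. Both calls were lost without MKP replicate 1 and without MKP replicate 2, and that of Cdkn1a also without MK6 replicate 3 (adjusted p up to 0.11 for Mdm2 and 0.204 for Cdkn1a in limma). With the beta-actin covariate the differences were 1.64 (adjusted p = 0.229) and 0.92 (adjusted p = 0.396).

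**Figure D5:**
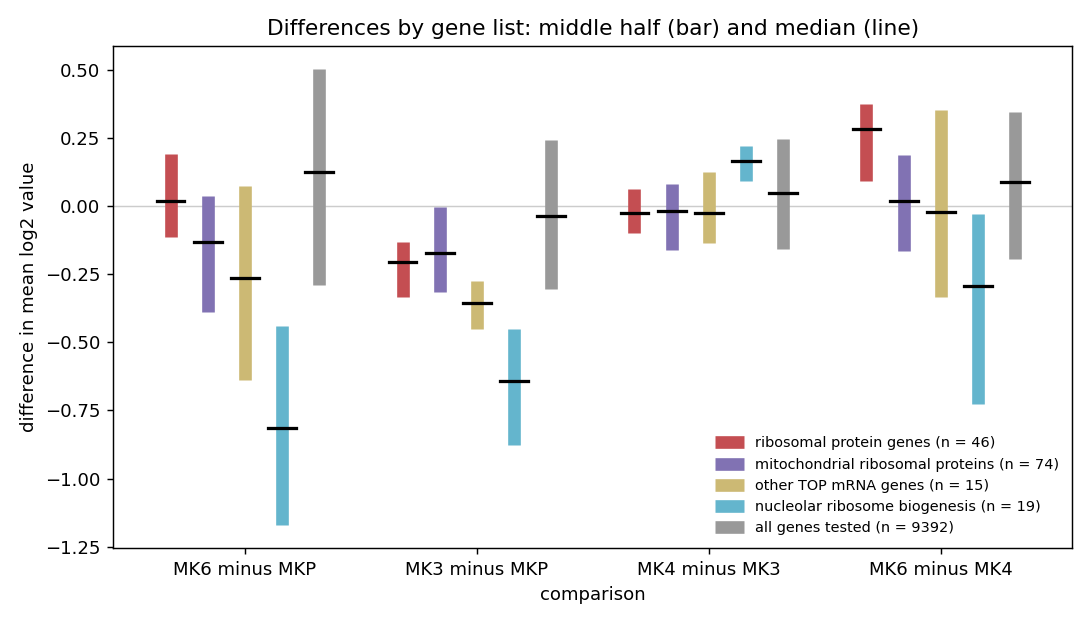
Difference in mean log2 value (y axis) in each of 4 comparisons (x axis) for 5 gene lists. Bars span the middle 50% of the genes of a list and lines mark the median; for MK6 minus MKP the median is 0.02 for the ribosomal proteins, -0.13 for the mitochondrial ribosomal proteins and -0.81 for the nucleolar factors.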

How the data were processed

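RNA from 9 samples was measured on 1-colour Affymetrix MOE430A arrays. The deposited values are probe set intensities on a linear scale, made by the authors with MAS5 per the submitters' processing notes; its version is not given in the sources used here. The arrays did not share a level (2% trimmed means of 102 to 220), so each was multiplied to a trimmed mean of 161. To each value a pseudocount of 15.3 (the 20th percentile) was added before log2 was taken; a fold on this scale understates changes of dim genes, and scaling leaves out changes in total RNA per cell. Probe sets that exceeded 46.8 (the 40th percentile) on 2 or more arrays were kept, and the one with the highest mean stood for its gene, which left 9392 of 12393 genes. Symbols came from the platform annotation, brought up to date through the RefSeq gene table, and sequences from RefSeq (GRCm38.p6).

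All arrays entered 1 limma 3.58.1 model in R 4.3.3 (a mean per stage and trended eBayes, with 5 residual degrees of freedom). The code was also run on simulated data with independent noise for each gene. Such data lack the shared movement of genes seen on the real arrays, so that run does not measure performance here. The number of arrays limits the precision. Replicates were numbered in accession order; the MK6 arrays titled as replicates 1 and 2 are MK6 replicates 2 and 3 here. The members and lists were chosen with earlier results of these data known. Named members are the 4 highest and 4 lowest MK6 minus MKP differences and a list chosen by function (stalk proteins, disease genes, paralogue pairs); from each other list up to 4 genes are named, by size of that difference. Alternatives changed the pseudocount, filter, scaling, probe set rule, variance model, covariates and arrays fitted.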

Additional observations from a re-analysis of the deposited data

How the results depend on the processing

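The counts of called members and the median differences were recomputed under 23 alternatives. Of 206 recomputed values, 193 kept their side of the threshold or moved by less than the spread between arrays of a stage (SD 0.27 for the array medians of the members). The medians of the 4 comparisons were 0.02, -0.21, -0.02 and 0.28, so a median could change sign and still count as kept. The tally is therefore a weak measure of how stable the medians are. The planned fit that left out MK6 replicates 2 and 3 together rests on MK6 replicate 1 alone, taken to vary like the other stages, so its calls are not given. Its median was -0.33 for MK6 against MKP and -0.11 for MK6 against MK4. For MK6 against MKP it gave -2.47 for Rpl22l1, -1.53 for Rps9, -1.24 for Rpl14, -1.23 for Rpl22 and 1.09 for Rpl39. The plan meant to leave out the arrays of lowest deposited level and named the wrong numbers, since these are MK6 replicates 1 and 3. A fit without these, a choice made after seeing the data, rests on MK6 replicate 2 alone, and its calls are not given either. With the log2 beta-actin ratio as covariate the median was -0.42 for MK6 against MKP and -0.12 for MK6 against MK4. The ratio and the MK6 stage cannot be separated in this fit, as every MK6 array had a higher ratio than any of the 6 earlier arrays. With no intensity trend the F test called 1 member, and with only the compared arrays 1 was called in MK3 against MKP, in each case Rps4l. With each array left out in turn, the median was -0.19 to 0.23 for MK6 against MKP, -0.36 to -0.07 for MK3 against MKP, -0.13 to 0.11 for MK4 against MK3 and 0.05 to 0.43 for MK6 against MK4. The counts were 0 to 1 in MK6 against MKP (Rpl39, without MK6 replicate 2), 0 to 1 in MK3 against MKP (Rps4l, without MK6 replicate 1), 0 to 1 by the F test (Rps4l, without MK6 replicate 2) and 0 to 0 in the others. Over all genes, MK6 against MKP gave 548 calls. The count was 1104 without MK6 replicate 2, 147 without MK6 replicate 3, and 3 and 11 without MKP replicates 1 and 2. It was 264 after centring on the members (also chosen after seeing the data) and 0 with the covariate. Rps4l passed the filter through MK3 alone, and nothing is read from its calls. Scaling to a common median took the all-gene median of MK6 minus MKP to 0.01, against 0.13, and that of the members to -0.11; after quantile normalization the members stood at -0.12. Among named members no called direction reversed; 6 values newly passed the threshold, Rpl22l1, Rps9, Rpl14, Rpl39 and Rpl22 on MK6 replicate 1 alone and Rpl39 without MK6 replicate 2, and 45 uncalled values changed sign. Where a result changed, the cause was not tested beyond the arrays left out. No paired analysis was possible because the replicate numbers follow accession order and pair no samples.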
